A study of Mus musculus with 7 samples.

Results

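The miR-200 family of microRNAs was followed in whole kidneys of megabladder mice and wild-type mice. All array features named mmu-miR-200a, mmu-miR-200b, mmu-miR-429, mmu-miR-200c or mmu-miR-141, without a star, were taken, which gave 5 family members of 611 mouse microRNAs on the array, and all 5 were among the 213 microRNAs tested. The megabladder line (mgb) is a mutant in which bladder smooth muscle does not form normally, so that urine drains poorly and the kidneys are obstructed. The groups were 3 homozygous mgb-/- males and 4 mgb+/+ males, with an age label of 4 weeks and a protocol age of 3.5 to 4 weeks. Each mouse gave 100 ng of total kidney RNA to 1 single-colour Agilent microRNA array. Of the 4 mutants that the series text counts, mouse 1 is not analysed here.

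MicroRNAs are short RNAs that pair with messenger RNAs through a seed near their 5′ end and lower their output. The miR-200 family is known as a keeper of epithelial identity: its members repress the transcription factors ZEB1 and ZEB2, which in turn shut off E-cadherin, and ZEB factors repress the family in return. In the kidney the family is expressed in tubular epithelium, and its loss has been studied in models of fibrosis in which epithelial cells take on mesenchymal features. The messenger RNAs of these targets, and of Myocd, a smooth muscle gene affected by the megabladder mutation, are not measured by a microRNA array.

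The 5 guide strands are shown because the family can be divided by seed or by genomic cluster, and these divisions cross. Sequences are those of RefSeq for build GRCm38.p6, matched to the array's older names as the 3p arm (5 of 5 matched), with seed bases 2 to 8 in capitals.
miR-200b: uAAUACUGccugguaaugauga
miR-200c: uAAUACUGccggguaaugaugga
miR-429: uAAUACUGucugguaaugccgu
miR-200a: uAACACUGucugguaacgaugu
miR-141: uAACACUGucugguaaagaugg
The seeds of miR-200b, miR-200c and miR-429 are the same, and that of miR-200a and miR-141 differs from them by U4C, counted from 1 at the 5′ end with the base of miR-200b first. The genes of miR-200b, miR-200a and miR-429 lie together at chr4:156053905-156055750 on the minus strand, a span of 1846 bases that overlaps the long non-coding RNA gene Gm13648 and neighbours Ttll10. Those of miR-200c and miR-141 lie at chr6:124717914-124718390 on the minus strand, a span of 477 bases between Phb2 and Ptpn6 that overlaps no other annotated gene. The closest sequences sit in different clusters: miR-200b and miR-200c are identical at 20 of 22 compared bases and differ by U11G and A22G, and miR-200a and miR-141 are identical at 20 of 22 and differ by C17A and U22G. How far a probe for one of such a pair also binds the other was not tested.

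Each array detected 190 to 210 of 611 mouse microRNAs well above background. Of 7 kidney tubule markers, 6 were above background on all 7 arrays, miR-215 being the exception. All listed erythroid, endothelial and stromal markers were too, so detection alone does not single out the tubule. Of 6 markers of liver, neuron, heart and pancreas, none was above background on 5 arrays, while miR-122 was on the array of megabladder mouse 2 and miR-375 on that of megabladder mouse 3. The 75th percentile of detected probes was 224 to 333 scanner units on megabladder arrays and 348 to 496 on wild-type arrays, and signals were scaled by it. After scaling, the median log2 level of all tested microRNAs was 5.53 to 5.63 on megabladder and 4.99 to 5.38 on wild-type arrays. The scaling thus did not level the genotypes at all signal strengths, and its bearing on microRNAs with low signal was not tested. All arrays shared 1 slide, with the genotypes in different slide rows, so genotype and slide row cannot be told apart. The number of arrays limits the precision, and labels name a separate mouse for each.

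No member of the family passed the test for a difference between genotypes. By limma, 0 of 5 members passed an adjusted p of 0.05, where 3.29% of the 213 tested microRNAs did, and 0 of 5 had an unadjusted p under 0.05, where 23.0% did. Megabladder and wild-type values overlapped in all 5 members, whereas they did not overlap for 22.1% of the tested microRNAs. Of the 5 members, 3 had a higher and the others a lower mean in megabladder kidneys, with a median log2 fold change of 0.0031, against 0.09 over all tested microRNAs. In whole kidney RNA, fewer epithelial cells and less microRNA per epithelial cell cannot be told apart.

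**Figure D1:**
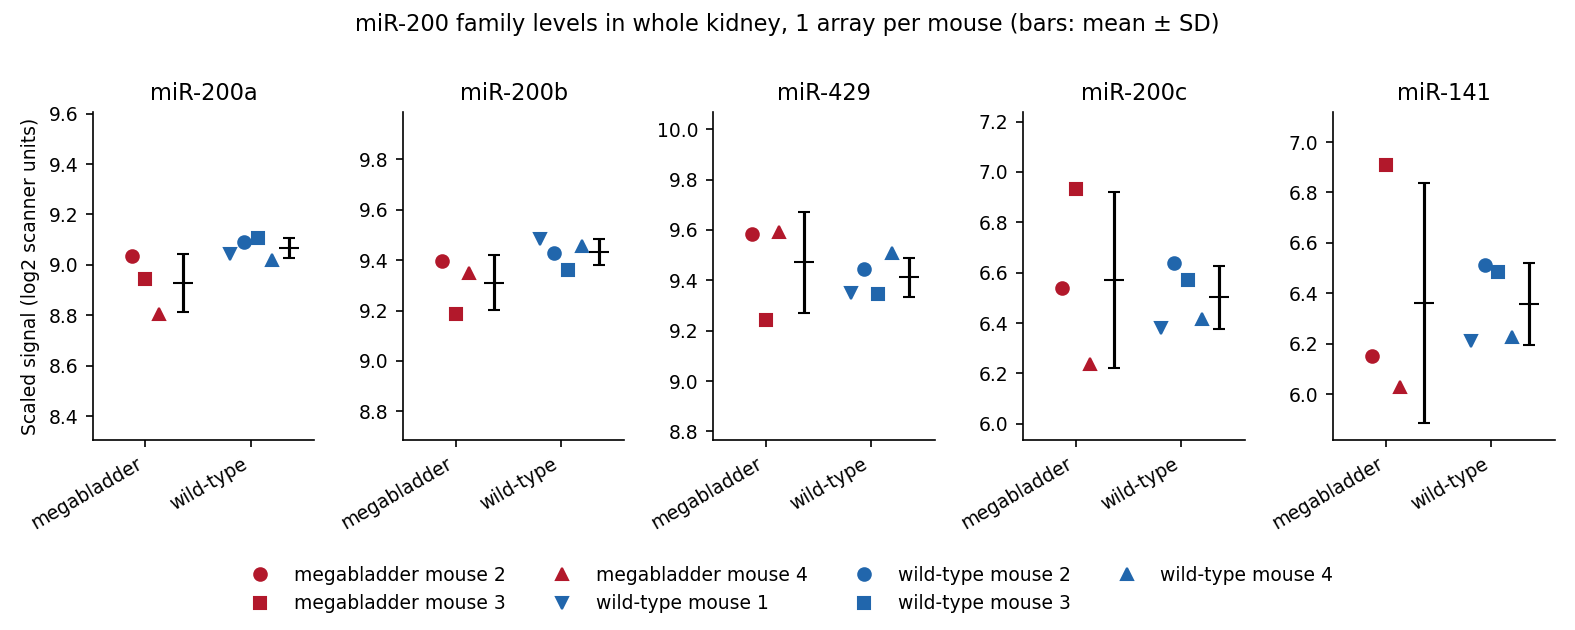
Scaled signal (log2 scanner units) of the 5 family members on each array, with megabladder mice in red on the left of each panel, wild-type mice in blue on the right, and black bars giving the mean ± SD. Each panel spans the same log2 range around its own values. The groups overlap in every panel, and megabladder mouse 3 (red square) is the highest array for miR-200c and miR-141 and the lowest for miR-200b and miR-429.

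Members of the chromosome 4 cluster differed little between arrays, and mutant means of miR-200a and miR-200b lay below wild-type means. Levels below are scaled scanner units averaged over 2 probes of each member on the log scale, and levels of different members are not comparable, because probes differ in how they bind. mmu-miR-200a, a carrier of the AACACUG seed, stood at 524, 493 and 447 units in megabladder mice 2, 3 and 4, against 528, 546, 551 and 519 units in wild-type mice 1, 2, 3 and 4. Megabladder mice 3 and 4 were the lowest arrays, while megabladder mouse 2 lay within the wild-type range. The mean log2 level was 8.93 ± 0.12 (SD, n = 3) in megabladder and 9.07 ± 0.04 (SD, n = 4) in wild-type kidneys. The log2 fold change was -0.14 (95% interval -0.35 to 0.07, adjusted p = 0.455 by limma), so the interval reaches from a 0.785-fold to a 1.05-fold level.

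mmu-miR-200b, whose seed is shared with miR-200c and miR-429, had 673, 583 and 653 units in megabladder mice 2, 3 and 4, against 717, 689, 658 and 702 units in wild-type mice 1 to 4. Megabladder mouse 3 was lowest, mouse 4 lay just under the lowest wild-type mouse, and mouse 2 again lay within the wild-type range. Its mean log2 level was 9.31 ± 0.11 (SD, n = 3) in megabladder and 9.43 ± 0.05 (SD, n = 4) in wild-type kidneys. This gave a log2 fold change of -0.12 (95% interval -0.33 to 0.09, adjusted p = 0.515 by limma).

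mmu-miR-429, encoded beside them, had 767, 605 and 772 units in megabladder mice 2, 3 and 4, against 652, 697, 649.8 and 728 units in wild-type mice 1 to 4. Here megabladder mice 2 and 4 were the highest arrays and megabladder mouse 3 the lowest, so the mutants lay on either side of all wild-type mice. The mean log2 level was 9.47 ± 0.20 (SD, n = 3) in megabladder and 9.41 ± 0.08 (SD, n = 4) in wild-type kidneys. The log2 fold change of 0.06 (95% interval -0.21 to 0.33, adjusted p = 0.868 by limma) did not pass.

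Members of the chromosome 6 cluster, which had lower signals, spread more widely than those of the chromosome 4 cluster in both genotypes. The SD of the cluster mean was 0.41 against 0.11 in megabladder and 0.14 against 0.03 in wild-type kidneys. mmu-miR-200c, a member often used as an epithelial marker, stood at 93.0, 122 and 75.5 units in megabladder mice 2, 3 and 4, against 83.3, 99.6, 95.2 and 85.4 units in wild-type mice 1 to 4. Megabladder mouse 3 was the highest of the 7 arrays and megabladder mouse 4 the lowest. The mean log2 level was 6.57 ± 0.35 (SD, n = 3) in megabladder and 6.50 ± 0.12 (SD, n = 4) in wild-type kidneys, a log2 fold change of 0.07 (95% interval -0.33 to 0.47, adjusted p = 0.901 by limma). Without megabladder mouse 3 it was -0.11 (adjusted p = 0.630), and without megabladder mouse 4 it was 0.23 (adjusted p = 0.424).

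mmu-miR-141, processed from the same locus as miR-200c, had 71.0, 120.1 and 65.2 units in megabladder mice 2, 3 and 4, against 74.0, 91.3, 89.6 and 74.9 units in wild-type mice 1 to 4. Megabladder mouse 3 was highest, and megabladder mice 2 and 4 were below all wild-type mice. The mean log2 level was 6.36 ± 0.48 (SD, n = 3) in megabladder and 6.36 ± 0.16 (SD, n = 4) in wild-type kidneys. The log2 fold change was 0.0031 with the widest interval of the family, -0.52 to 0.52 (adjusted p = 0.996 by limma), which spans folds of 0.699 to 1.44. Without megabladder mouse 3 the log2 fold change was -0.27 (adjusted p = 0.260), and megabladder and wild-type values then did not overlap. With only megabladder mice 2 and 4 left, such separation comes more easily, and its share over all tested microRNAs was not counted. Without megabladder mouse 4 the log2 fold change was 0.17 (adjusted p = 0.694).

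**Figure D2:**
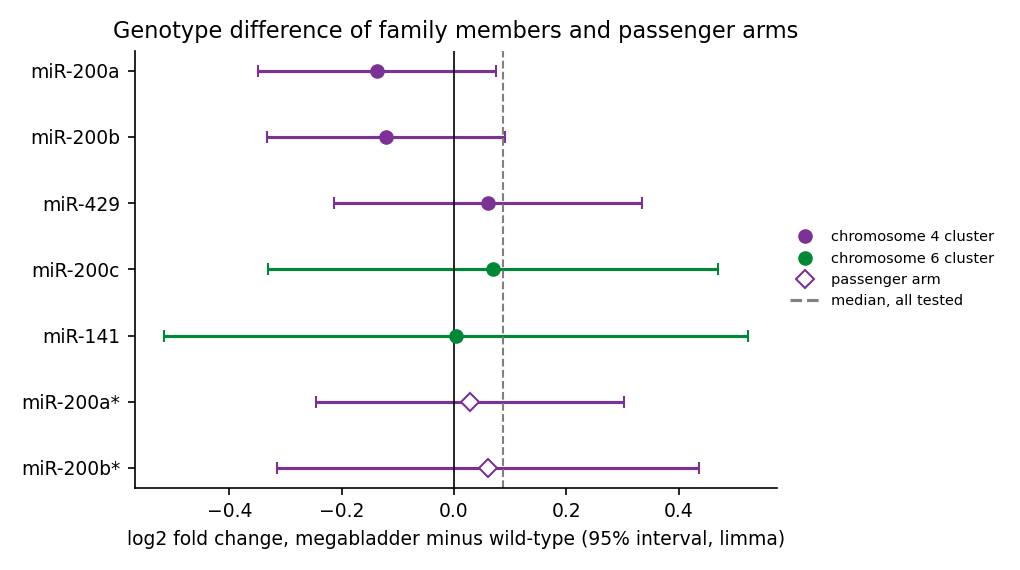
Log2 fold change (megabladder minus wild-type) of the 5 members and of 2 passenger arms, with 95% intervals from limma. Purple marks the chromosome 4 cluster, green the chromosome 6 cluster, open diamonds the passenger arms, and the dashed line the median of all tested microRNAs at 0.09. Every interval includes 0, and those of miR-200c and miR-141 are wider than those of miR-200a, miR-200b and miR-429.

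Levels spread more among the mutants, for 3 of 5 members only with megabladder mouse 3 included. The SD of log2 levels was 0.11 to 0.48 over the 3 megabladder arrays and 0.04 to 0.16 over the 4 wild-type arrays, and larger in megabladder kidneys for 5 of 5 members. Over all tested microRNAs it was larger in megabladder kidneys for 61.5%. Without megabladder mouse 3 it was larger for 2 of 5 members, miR-200a and miR-200c, and for 39.9% of all tested microRNAs. The coefficient of variation over the spots of a probe ran from 0.936% to 13.7% across the 10 member probes and 7 arrays. Each probe had 10 spots, all 10 probes were above background on all arrays, no spot was saturated, and 24 of 700 spots were left out as outliers.

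Comparing the genomic clusters showed no shared genotype difference, but 1 kidney in which they parted. The gap between the clusters was taken within each array as the mean log2 level of miR-200a, miR-200b and miR-429 minus that of miR-200c and miR-141, so that a scaling factor per array cancels. Its absolute size also reflects the probes. The gap was 2.99, 2.20 and 3.12 log2 units in megabladder mice 2, 3 and 4, against 3.00, 2.75, 2.74 and 3.01 in wild-type mice 1 to 4. Megabladder mouse 3 stood below and megabladder mouse 4 above all wild-type mice. The mean gap was 2.77 ± 0.50 (SD, n = 3) in megabladder and 2.87 ± 0.15 (SD, n = 4) in wild-type kidneys, a difference of -0.10 that is smaller than either SD. It was -0.21, 0.18 and -0.27 without megabladder mouse 2, 3 or 4, so its sign rested on which mutants were included, and -0.15 to -0.058 without any 1 wild-type mouse. It was given no test, being a score over chosen members.

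By cluster, the mean log2 fold change was -0.07 for the chromosome 4 members and 0.04 for the chromosome 6 members. Without megabladder mouse 2, 3 or 4 the chromosome 4 value was -0.12, -0.0097 or -0.072, and the chromosome 6 value 0.097, -0.19 or 0.20. Without any 1 wild-type mouse the chromosome 6 value ranged from -0.0092 to 0.084. Grouped by seed instead, miR-200b, miR-200c and miR-429 had a mean difference of 0.0027 and miR-200a and miR-141 one of -0.07. Leaving out 1 array at a time, these ranged from -0.024 (without megabladder mouse 2) to 0.031 (without megabladder mouse 4) and from -0.21 (without megabladder mouse 3) to 0.047 (without megabladder mouse 4). With all 7 arrays, the megabladder values overlapped the wild-type values in each of these groupings.

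**Figure D3:**
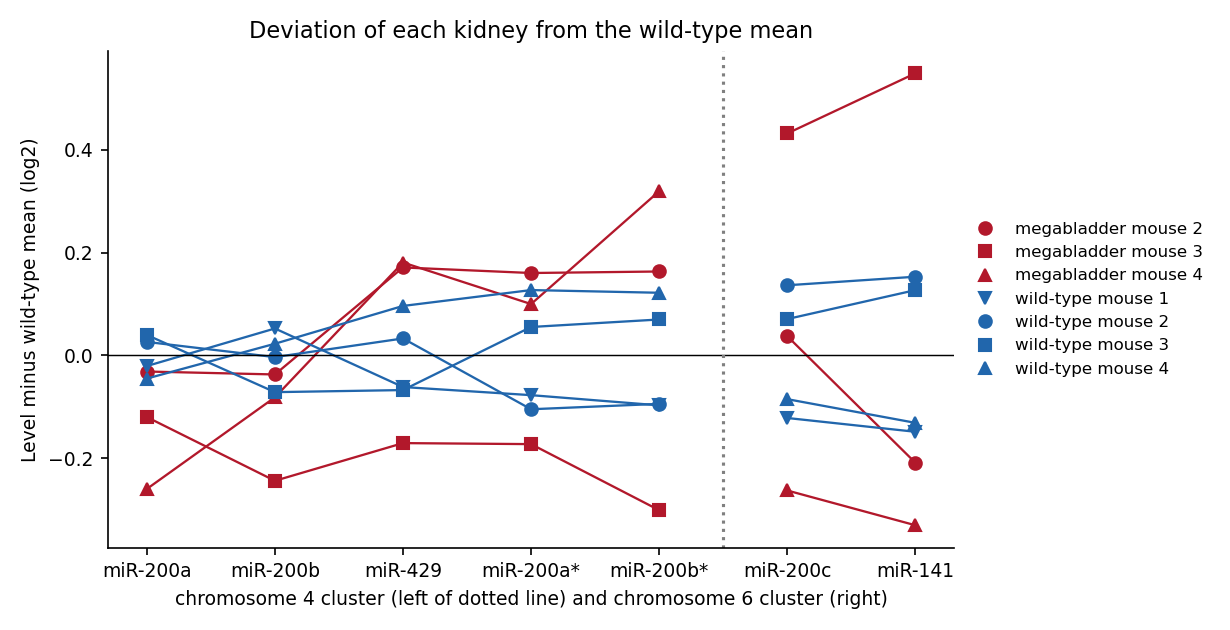
Log2 level of each member and of 2 passenger arms on each array minus the wild-type mean of that microRNA, with the chromosome 4 cluster left and the chromosome 6 cluster right of the dotted line. Symbols give the mouse, red for megabladder and blue for wild-type, and lines join values of 1 array. Megabladder mouse 3 lies below the wild-type mean for all 5 chromosome 4 products and 0.43 and 0.55 above it for miR-200c and miR-141.

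In megabladder mouse 3, picked out after its values were seen, all probes of a cluster lay on the same side of their wild-type means. Member levels are means of these probes, so the probes are no separate support for the split between the clusters. All 6 probes of the chromosome 4 members were below their wild-type means, by 0.09 to 0.31 log2 units, and all 4 probes of the chromosome 6 members were above theirs, by 0.39 to 0.58. The near-identical sequences lie in different clusters, so their differences restate the same values and add no further support. In this mouse the difference miR-200b minus miR-200c was -0.68 log2 units relative to its wild-type mean, and miR-200a minus miR-141 was -0.67. This array was the lowest of the 7 for 31.5% of the tested microRNAs and the highest for 19.2%, so extreme values there were common outside the family too.

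Summed markers of several cell types also lay outside the wild-type range in the same mouse, while others lay within it. The 3 stromal markers, miR-199a-3p, miR-199a-5p and miR-214, summed to 407 scaled units in megabladder mouse 3, against 309 and 251 in megabladder mice 2 and 4 and 212 to 268 in wild-type mice. The 3 markers of urothelium and stratified epithelium summed to 59.7 units in megabladder mouse 3, against 115 and 73.2 in megabladder mice 2 and 4 and 58.8 to 64.0 in wild-type mice. The 6 tested tubule markers summed to 3345 units in megabladder mouse 3, the lowest of all arrays, against 3835 and 3750.4 in megabladder mice 2 and 4 and 3583 to 3759 in wild-type mice. The stromal sum was thus the highest and the tubule sum the lowest of the 7 arrays, while the urothelial sum lay within the wild-type range. A sum is set mostly by its brightest markers. Of the 6 tubule markers, 4 lay above their wild-type means in megabladder mouse 3 and 2 below, with a median of 0.14 log2 units. Of the urothelial markers, miR-205 and miR-31 lay 0.90 and 0.65 log2 units above theirs and miR-203 lay 0.95 below. The 2 endothelial markers summed to 1364 units in megabladder mouse 3, against 1533 and 1668 in megabladder mice 2 and 4 and 1565 to 1627 in wild-type mice. The 4 leukocyte markers tested summed to 139 units in megabladder mouse 3, against 160.1 and 200.3 in megabladder mice 2 and 4 and 153 to 201 in wild-type mice. Endothelial and leukocyte sums were lowest in megabladder mouse 3. Its smooth muscle sum of 183 units and erythroid sum of 2359 units lay within the wild-type ranges of 150.2 to 190.5 and 2129 to 2811 units. Within the tubule list, miR-192 and miR-194, which are abundant in the proximal tubule and were picked out here after their values were seen, lay 0.64 and 0.56 log2 units below their wild-type means in that mouse. The tubule list as a whole did not share this. Of its 10 tested microRNAs, 7 lay above their wild-type means in megabladder mouse 3, among them miR-204 by 0.71, miR-30d by 0.44 and miR-10a by 0.28, against 56.3% of all tested microRNAs. The part of these markers in the cluster gap was not tested.

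**Figure D4:**
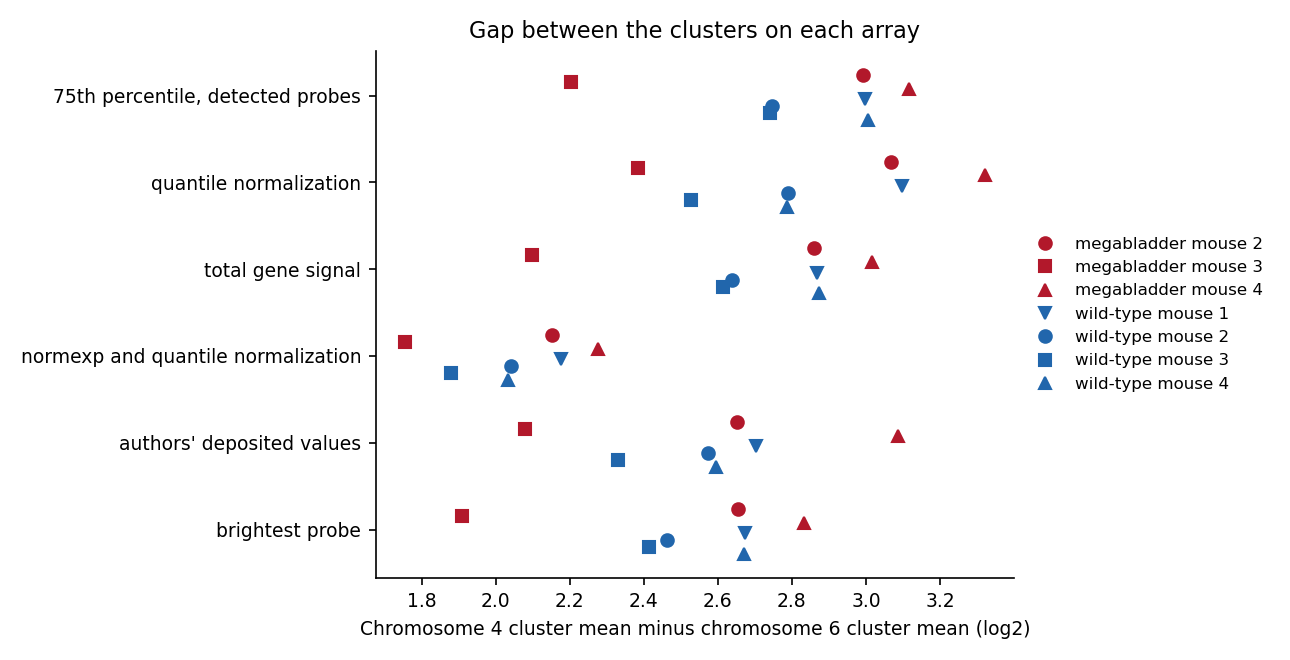
Gap between the clusters (log2 units, chromosome 4 mean minus chromosome 6 mean) on each array, red for megabladder and blue for wild-type mice, one row for each way of deriving the levels. Megabladder mouse 3 has the lowest gap and megabladder mouse 4 the highest in all 6 rows, while the distance of megabladder mouse 3 to the next array ranges from 0.13 to 0.54 log2 units.

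Megabladder mouse 3 had the lowest gap between the clusters in all 6 ways of deriving levels. Some array is always lowest, and the 6 ways reuse the arrays on which this mouse was picked out. They are therefore no separate support for its split. Whether each cluster stayed on its side of the wild-type mean was not tested for each way. Its gap lay 0.54 log2 units below that of the next array in the main scaling. The distance was 0.14 with quantile normalization and 0.13 with normexp background correction. With quantile normalization the gap was 2.385 in megabladder mouse 3, and wild-type gaps ran from 2.528 to 3.098. The distance there was thus smaller than the spread among wild-type mice. Normexp added an offset of 50 units, which by construction compresses low signals such as those of the chromosome 6 members. Quantile normalization alone used no offset. Across the 6 ways, the mean genotype difference of the gap was between -0.10 and 0.12.

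Members of 1 cluster tracked each other more closely than members of different clusters. Over the 7 arrays, the within-array difference of 2 members had an SD of 0.11 to 0.19 log2 units in the 4 pairs from 1 cluster and of 0.22 to 0.41 in the 6 pairs from different clusters. Pairs sharing a seed ranged from 0.13 to 0.33 and those with different seeds from 0.11 to 0.41. Without megabladder mouse 3 the cluster ranges overlapped, at 0.10 to 0.20 and 0.08 to 0.28. These are descriptions over shared arrays, with no test.

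The likeness of array patterns was measured as the root mean square difference of log2 values over the 7 arrays, each microRNA centred on its own mean. miR-200c was the closest of 212 other tested microRNAs to miR-141, at 0.11, and miR-141 ranked 3 of 212 for miR-200c. The nearest non-members were miR-27a (0.07) and miR-34b-5p (0.10) for miR-200c, and miR-10a (0.13) and miR-34b-5p (0.14) for miR-141. In the chromosome 4 cluster fellow members ranked lower. miR-200b ranked 12 of 212 for miR-200a and 26 for miR-429, and miR-200a ranked 13 for miR-200b. Closer non-members were miR-30c (0.03) and miR-195 (0.06) for miR-200a, let-7d (0.05) and miR-340-5p (0.06) for miR-200b, and miR-378* (0.06) and miR-103 (0.07) for miR-429. With values this flat across arrays, the measure brings together microRNAs that varied little.

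Passenger arms, the strands of a precursor that are mostly degraded, were above background for miR-200a and miR-200b of the chromosome 4 cluster, and miR-429* is not on the array. The precursors of miR-200a and miR-200b are shown because both of their arms gave signal. Capitals mark the passenger (5p) arm first and the guide (3p) arm second.
Mir200a: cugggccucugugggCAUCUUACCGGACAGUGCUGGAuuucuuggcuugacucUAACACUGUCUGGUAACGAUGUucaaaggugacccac
Mir200b: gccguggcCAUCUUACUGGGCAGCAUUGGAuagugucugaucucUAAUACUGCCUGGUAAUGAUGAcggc
miR-200a* had 17.3, 13.7 and 16.6 units in megabladder mice 2, 3 and 4, against 14.7, 14.4, 16.1 and 16.9 units in wild-type mice 1 to 4. miR-200b* had 28.2, 20.4 and 31.4 units in megabladder mice 2, 3 and 4, against 23.5, 23.6, 26.4 and 27.4 units in wild-type mice 1 to 4. Each rests on 1 probe above background on all arrays, close to the floor of 11.4 units set under low signals. Megabladder mouse 3 was the lowest array for both arms, as it was for miR-200b and miR-429. The log2 fold changes were 0.03 for miR-200a* (95% interval -0.24 to 0.30, adjusted p = 0.929) and 0.06 for miR-200b* (-0.32 to 0.44, adjusted p = 0.906), and neither passed in limma. No probe of miR-200c* or miR-141* was well above background on any array.

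Of 7 other epithelial microRNAs, 5 were tested and 0 passed an adjusted p of 0.05 in limma, where 3.29% of all tested microRNAs did. With a share that low, 0 in a list this short says little. Among them, miR-205 is known to act with the miR-200 family on ZEB factors. miR-205 had log2 levels of 5.61, 4.41 and 4.21 in megabladder mice 2, 3 and 4 and was at the floor of 3.51 on all 4 wild-type arrays, with an adjusted p of 0.0712 by limma. The groups did not overlap for miR-205, 1 of 5 tested in this list, where they did not for 22.1% of all tested microRNAs. The wild-type values of miR-205 at the floor hold no spread. A value at the floor is not absence, as miR-205 was above background on the array of wild-type mouse 3. It was not on those of wild-type mice 1, 2 and 4. miR-31 had a log2 fold change of 0.44 and miR-203, which restrains stem cell programmes in skin, of -0.17. The median of the list was 0.11.

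Of 12 tubule microRNAs, 10 were tested and 0 passed an adjusted p of 0.05 in limma, where 3.29% of all tested microRNAs did. The list had a median log2 fold change of -0.06, near the family's. miR-30d had 0.26, miR-204 had 0.50 and miR-30b had -0.13. Stromal and fibrosis microRNAs are a list of mesenchymal microRNAs and of others studied in fibrosis. Of its 10 microRNAs, 9 were tested and 0 passed, against the same share. The median was 0.38, with positive values in 9 of 9, where 68.1% of all tested microRNAs were positive. The 9 are not independent, as they hold both arms of miR-21 and of miR-199a. Among them miR-21* had 0.95 (adjusted p = 0.0551 by limma) with 3 wild-type arrays at the floor, miR-199b* had 0.59 and miR-199a-5p had 0.39. The lowest were miR-143 and miR-21 at 0.09 and miR-212 at 0.05. Against a median of 0.09 over all tested microRNAs, the medians of the family and of the tubule list were lower and that of the stromal list higher, with no test of these differences between lists.

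**Figure D5:**
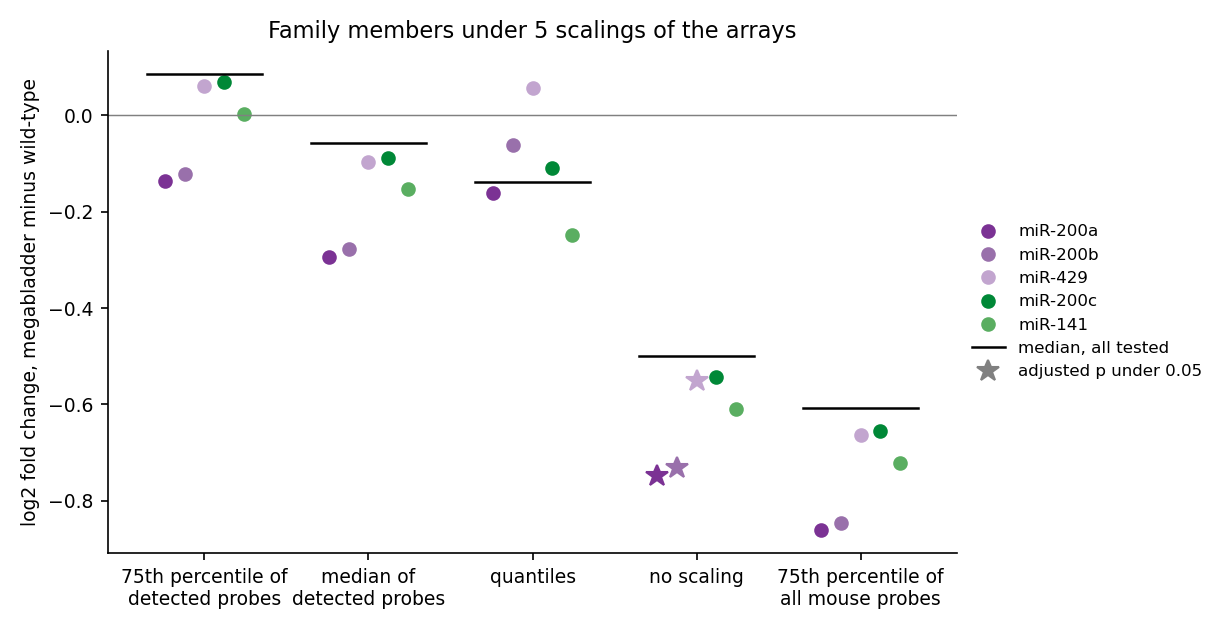
Log2 fold change (megabladder minus wild-type) of the 5 members under 5 scalings of the arrays, with a black line for the median of all 213 tested microRNAs under each. Circles did not pass and stars passed an adjusted p of 0.05 in limma. Without scaling and with scaling by all mouse probes the members lie with the median, between -0.86 and -0.54.

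Whether the family counts as lower in megabladder kidneys depended on how arrays were scaled. With no scaling, miR-200a (-0.75), miR-200b (-0.73) and miR-429 (-0.55) passed as lower in limma, 3 of 5 members where 32.4% of all tested microRNAs passed, and the median of all microRNAs was -0.50. Scaling by all mouse probes gave -0.86 to -0.66 with 0 members past the threshold, and 3 of 5 members and 96 of 213 microRNAs had an unadjusted p under 0.05. The 75th percentile used there lies close to the limit of detection, as 19.0% to 21.8% of all probes on an array were above background. Scaling by the median left 0 of 5 members and 0.939% of all past the threshold, and quantile normalization 0 of 5 and 0.0%. At an unadjusted p under 0.05, scaling by the median had 2 of 5 members, miR-200a and miR-200b, and 46 of 213 microRNAs. The members follow the array-wide shift by construction of these scalings. Relative to the median of all tested microRNAs, miR-200a lay at -0.25 to -0.02 and miR-141 at -0.11 to -0.08 in all 5 scalings. miR-200b (-0.24 to 0.08), miR-429 (-0.06 to 0.20) and miR-200c (-0.05 to 0.03) lay on either side of it, and above it only with quantile normalization, which alone of the 5 can alter relative values apart from the floor.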

How the data were processed

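Spot intensity comes from Agilent Feature Extraction 10.7.3.1 run by the authors, as headers of the files and the processing notes state. The deposited intensity values are background-subtracted within each array and not scaled between arrays. A second deposited table gives 1 intensity per microRNA and array from the authors, scaled by a method not given in the sources used here. It served as an alternative for 191 microRNAs, because from one point in alphabetical order its values match the preceding name. The file headers name another mouse build, so coordinates are those of the RefSeq sequence table.

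Control spots and outlier spots (3.45% to 3.77% per array) were left out. Spots of a probe were averaged, divided per array by a 75th percentile (292 probes, those above background on every array), floored at 11.4 units and put on a log2 scale. A level is the mean over probes well above background (at least 0.5 of spots) on at least 3 arrays. The genotype difference was fitted in R 4.3.3 by limma 3.58.1 (lmFit, then eBayes), and p-values were adjusted by Benjamini-Hochberg over 213 microRNAs. The fit was tested on simulated data. The lists held 7 epithelial, 12 tubule and 10 stromal and fibrosis microRNAs, of which up to 3 with the smallest p (miR-205 always) were named beside all family members, their passenger arms and 2 nearest patterns each. Members and lists were chosen with earlier results of these data known. Normexp used the median spot signal and an offset of 50 units. Alternatives covered scaling, signal, background, filter, probes, floor, replicate block and single arrays.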

Additional observations from a re-analysis of the deposited data

Results flagged for a closer look

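Among 26 sets of 4 wild-type values examined for a value far from the others (array measures, members, cluster means and named microRNAs), 3 held one. The array of wild-type mouse 4 detected 190 microRNAs, where wild-type mice 1, 2 and 3 had 204 to 206. Chance sets such a value apart in about 1 in 20 sets. Wild-type mouse 3 had a miR-31 level of 3.63 and wild-type mouse 4 a miR-21* level of 3.57 on the log2 scale, where the other wild-type arrays were at the floor of 3.51. With 3 values at the floor, any value above it stands apart by construction, so these 2 say nothing beyond that. No family member, passenger arm or gap between the clusters had such a value. The megabladder group, with 3 arrays, is too small for this examination, which therefore says nothing about megabladder mouse 3.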

How the results depend on the processing

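Over 20 alternatives, miR-200a (-0.86 to -0.07) and miR-200b (-0.85 to -0.05) kept a negative log2 fold change. Not all of these could change it. Using no filter, only microRNAs detected on all arrays, or a floor of 1 returned the main fold change of every member. The replicate block returned those of the fit without wild-type mouse 1. Scaling by all mouse probes turned miR-429 to -0.66, miR-200c to -0.66 and miR-141 to -0.72, with cluster means of -0.79 (chromosome 4) and -0.69 (chromosome 6), a family median of -0.72 and 0 microRNAs past the threshold. Scaling by the median gave -0.10, -0.088 and -0.15 for these members, a chromosome 4 mean of -0.22, a family median of -0.15 and 2 microRNAs. Quantile normalization gave -0.11 for miR-200c, which was also the family median, -0.25 for miR-141 and 0 microRNAs. With no scaling miR-200a (-0.75), miR-200b (-0.73) and miR-429 (-0.55) passed as lower, miR-200c had -0.54 and miR-141 -0.61, the cluster means were -0.68 and -0.58, the family median was -0.61, and 69 microRNAs passed, 3 of them members. Normexp gave -0.034 for miR-200c, -0.094 for miR-141 and 1 microRNA, and the authors' deposited table -0.040, -0.14 and 1. miR-141 was -0.0024 with the brightest probe. The count of 7 became 4 for microRNAs detected on all arrays, where 164 were tested, and 0 with total gene signal, no filter or a floor of 1 (26, 40 and 30 at an unadjusted p under 0.05 in limma). It was 1 without wild-type mice 3 and 4, chosen after seeing the data. Leaving out 1 array at a time gave -0.11 to 0.23 for miR-200c, -0.27 to 0.17 for miR-141, -0.11 to 0.054 for the family median and 0 to 19 microRNAs, the 19 without megabladder mouse 3. No member passed in any of these 7 fits. Where no construction is named, the cause was not tested.

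Mouse numbers 2, 3 and 4 occur in both genotypes and match the slide column. Deviations of same-numbered arrays from their group means correlated at -0.21, 0.0066 and 0.21, and 2 of 6 arrays correlated best with their own number. With so few arrays, these values cannot tell whether same-numbered arrays share more than a number and a column. With a replicate block miR-141 had -0.046 and 28 microRNAs passed, none of them a member.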
